A study of Mus musculus with 3 samples.

Results

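The respiratory chain genes described here are the nuclear genes whose symbol begins with Nduf, Uqcr, Cox4 to Cox8 or Atp5, or is Sdha, Sdhb, Sdhc or Sdhd, and which are read by at least 1 probe set assigned to a single gene. The rule found 84 such genes of 12393 named genes on the array, read by 156 probe sets. By symbol, 39 belonged to complex I, 4 to complex II, 8 to complex III, 16 to complex IV and 17 to complex V. Another 9 symbols of the same families, among them Ndufs6, Ndufb4 and Ndufa11, were covered only by probe sets shared between genes and were not analysed here.

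RNA came from RAW264.7, an established mouse macrophage line grown out of a tumour induced by a leukaemia virus, so it is a single transformed line rather than primary macrophages. Lipopolysaccharide (LPS), a cell wall product of Gram-negative bacteria that macrophages sense through Toll-like receptor 4, was given for 0, 2 or 12 h, and each time was read on 1 array. No replicate exists at any time and the design holds no untreated culture at 2 or 12 h, so time in culture and LPS cannot be told apart. The labels do not say whether the cultures were separate, and no test of the conditions was possible. All values are array signals, differences between 2 arrays and counts. The sources used here do not give the LPS dose.

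The respiratory chain is a set of 5 protein complexes in the inner mitochondrial membrane. Complex I (NADH dehydrogenase) and complex II (succinate dehydrogenase, which is also an enzyme of the citric acid cycle) pass electrons to coenzyme Q. Complex III hands them to cytochrome c and complex IV (cytochrome c oxidase) to oxygen, and complex V (ATP synthase) uses the resulting proton gradient to make ATP. In macrophages the chain is known as a site of metabolic switching on activation, in which succinate oxidation by complex II and electron flow through complex I have a part. A few core subunits are encoded by mitochondrial DNA and lie outside the rule.

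Known LPS response genes were read first as a check of the labels. Tnf had signals of 184, 3346 and 1343 at 0, 2 and 12 h, and Il1b and Cxcl2 were 46.8-fold and 65.3-fold higher at 2 h than at 0 h. Of 12 macrophage markers, 11 were above the floor on every array, the exception being Mrc1, and their summed signal was 26420 at 0 h, 26363 at 2 h and 28774 at 12 h. The summed signals of T cell, B cell, neutrophil, fibroblast, epithelial and muscle markers lay between 64.6 and 178.5 for any type and time. Mpo, Col1a2 and Krt8 were the only ones of these markers above the floor on every array. Elane was above it at 0 h and 12 h (37.1 and 42.3). Ms4a1, S100a8 and Ckm were above it at 12 h only (54.6, 40.4 and 42.2). The others on the array, among them Cd3d, Cd79b, Camp, Dcn, Epcam and Acta1, were under it throughout. The floor, a scaled signal of 34.96, is the 40th percentile of all values, and 2 signals under it are not compared. Because the extract is of whole cultures, fewer cells of a kind and less RNA per cell cannot be told apart.

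Of the 84 genes, 79 were above the floor on every array. Ndufaf7, an assembly factor of complex I, was above it at 2 h only (30.9, 39.7 and 7.1). The 4 genes under it on every array were Cox6b2, Cox7a1 and Cox8b, isoforms of complex IV known from testis or muscle, and Cox7c, an isoform of most tissues. The brighter of the 2 Cox7c probe sets had signals of 22.1, 25.9 and 29.1, and whether these probe sets detect Cox7c was not tested. Most of the chain was strongly expressed, with 67 of the 84 genes (79.8%) among the 1745 brightest genes, which are 20% of the genes above the floor on any array and serve below as a background of like signal.

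After 12 h of LPS, respiratory chain genes stood below their 0 h signals as a body, by small amounts that were largest for complexes II and I. Over the 79 measured genes, the median log2 difference at 12 h against 0 h was -0.20, a 1.15-fold lower signal. The median of all 8619 measured genes was -0.05 and that of the 1724 brightest of them -0.01. The complex medians were -0.42 for complex II (1.34-fold lower), -0.31 for complex I (1.24-fold lower), -0.23 for complex III, -0.15 for complex V and -0.11 for complex IV. Below the median of all genes lay 62 of the 79 genes (78.5%), where 50% of all genes and 45.3% of the 1745 brightest did so.

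The single differences at 12 h were modest. At least 1.5-fold lower than at 0 h were 3 of 79 genes (Uqcr11, Ndufa5 and Ndufa3), against 10.3% of all measured genes and 6.99% of the brightest. None was at least 1.5-fold higher, against 8.27% and 9.4%. A log2 difference of 0.32, used as a smaller limit, was passed downward by 30 of 79 genes (38%), against 24.3% of all genes and 19.9% of the brightest. It was passed upward by 2 genes, Uqcrh and Cox8c, against 18.6% and 20.6%.

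At 2 h the chain as a body lay at the median of all genes and somewhat below bright genes. The median over 80 measured genes was -0.10, equal to 2 decimals to that of all 8413 measured genes, while the 1683 brightest genes had a median of 0.01 and the 1683 dimmest -0.14. Below the median of all genes were 38 of 80 (47.5%), against 49.9% of all genes and 34.9% of the 1745 brightest. The complex medians were -0.12 for complex II, -0.11 for complexes I and V, -0.01 for complex IV and 0.02 for complex III. At least 1.5-fold higher were 2 genes, Uqcr10 and Atp5k, against 5.59% of all genes and 6.36% of the brightest, and at least 1.5-fold lower was 1, Cox7a2l, against 9.63% and 2.18%. With the arrays set to a common median instead of a common trimmed mean, the median of all genes at 2 h moved from -0.10 to 0.03, so that the sign of a small difference at 2 h follows the scaling.

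**Figure D1:**
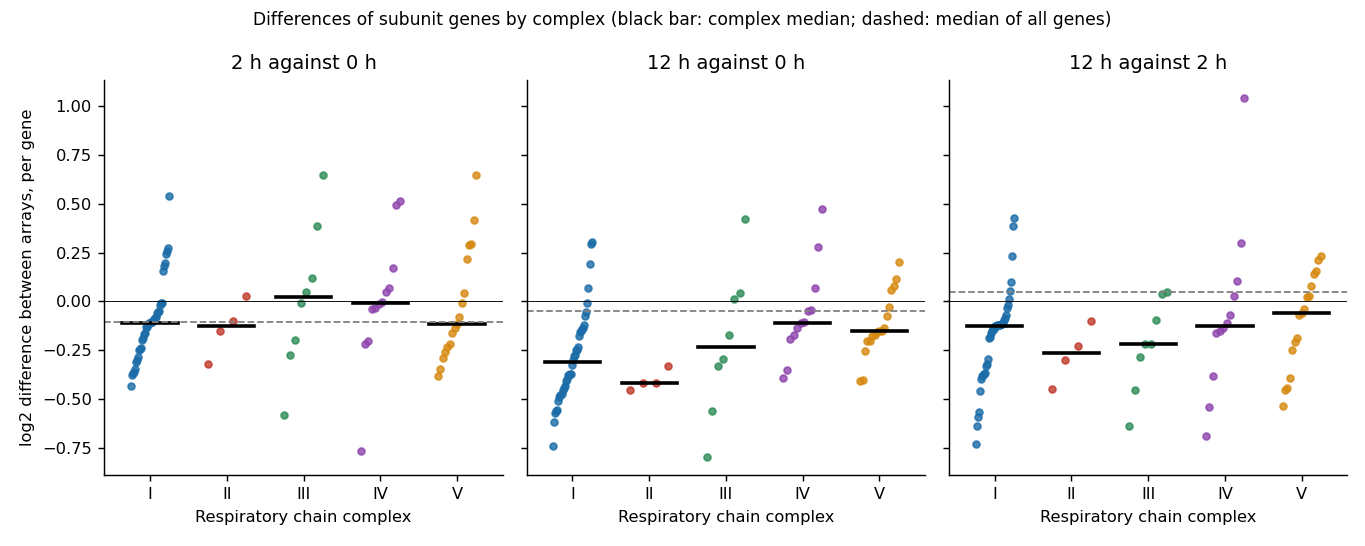
Log2 difference of each measured gene (points, ordered by value within a complex) between 2 arrays, by complex (x axis), for the 3 pairs of times. Black bars are complex medians and dashed lines the median of all genes: at 12 h against 0 h the bars of complexes II (-0.42) and I (-0.31) lie farthest below the dashed line (-0.05), while at 2 h the bars lie between -0.12 and 0.02 around a line at -0.10.

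Between 2 h and 12 h, 67 of 80 genes (83.8%) lay below the median difference of all genes, which was 0.05, against 50% of all genes and 59.4% of the 1745 brightest. Their own median was -0.13. At least 1.5-fold lower were 5 of 80 genes, against 6.44% of all genes and 6.02% of the brightest, namely Ndufa5, Cox6a2, Ndufb2, Uqcr10 and Ndufb7. At least 1.5-fold higher was 1, Cox7a2l, against 10.1% and 5.9%. The limit of 0.32 was passed downward by 22 genes, against 16.9% of all genes and 18.4% of the brightest, and upward by 3, against 23.3% and 15.3%. The 3 comparisons share arrays and are not independent of each other.

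By the brightest probe sets, a 2-fold difference was reached by 1 gene in 1 comparison, Cox7a2l at 12 h against 2 h. There 2.65% of all genes were at least 2-fold higher and 1.97% lower. At 2 h and 12 h against 0 h no chain gene reached 2-fold in either direction by these probe sets. Of all genes, 2.09% were higher and 1.68% lower at 2 h, and 3% higher and 2.39% lower at 12 h. A second, dimmer probe set of Sdhd was 2.62-fold lower at 2 h. Taken as scaled, without reference to other genes, 57 of 80 genes were below 0 at 2 h against 0 h (62.4% of all genes), 65 of 79 at 12 h against 0 h (54.7%) and 61 of 80 at 12 h against 2 h (44.2%).

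Among the 79 genes above the floor throughout, the lowest of the 3 signals was the 12 h one in 55 (69.6%), against 34.7% of all 7326 genes above the floor throughout and 38.1% of the brightest. The highest was the 0 h one in 52 (65.8%), against 43.8% and 35.4%. By the brightest probe sets, the 12 h signal was the lowest in 30 of 38 complex I genes and all 4 complex II genes. In complex V this held for 8 of 17 genes.

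Relative to the median of all genes, 36 of the 79 genes (45.6%) were below it at both times, against 34.5% of all genes and 24.9% of the brightest. Below it at 12 h only were 26 (32.9%), against 16.6% and 20.4%, and at 2 h only 2 (Ndufb6 and Cox7a2l), against 14.9% and 9.98%. The other 15 (19%) were below it at neither time, against 34% and 44.7%. The last set held Ndufa2, Ndufb1, Ndufb8 and Ndufs8 of complex I, Uqcr10, Uqcrb and Uqcrh of complex III, Cox4i1, Cox6b1 and Cox8c of complex IV, and Atp5j, Atp5k, Atp5md, Atp5o and Atp5pb of complex V. No complex II gene was in it. The set follows the brightest probe sets, and for Ndufs8, Atp5k and Atp5o the probe sets disagreed in sign at both times. A second probe set of Atp5o gave log2 differences of -0.55 at 2 h and -0.32 at 12 h, against 0.29 and 0.08 by the brightest.

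Promoters of the chain's genes were read for motifs of factors known to regulate it, and 4 that hold a motif are printed. Those of Sdha and Sdhd are from complex II, which had the lowest median at 12 h. Of the 3 complex II genes with a promoter, these are the 2 that hold a motif. The others printed are those of Uqcr11 and Atp5k, which by the brightest probe sets had the lowest value at 12 h and one of the highest at 2 h. RefSeq promoter sequences of assembly GRCm38.p6 were matched for 70 of the 84 genes, and the 250 bases before the transcription start were searched on both strands. The NRF1 motif, which is GCGCA, then any base, then GCGC, was found in 11 of 70 genes (15.7%), in 9.56% of measured genes and in 4.23% of all genes in the table. By promoter, its share was 16% for the chain, 8.05% for measured genes and 3.74% for all promoters of the same length. The ETS family core, CCGGAAG, which GABP binds, was in 13 of 70 genes (18.6%), in 16.1% of measured genes and in 7.83% of all. The YY1 motif, AAGATGGC, and the ERR motif, TCAAGGTCA, were each in 1 of 70 genes (1.43%), against 2.45% of measured genes for YY1 and 0.281% for ERR. Many genes have none of these letters in the window, which says nothing of the factors. The stretches below are the last 120 bases before the start, 5′ to 3′ on the gene's strand, with the NRF1 and ETS motifs in capitals. An ETS motif on the other strand reads CTTCCGG. A match describes the letters only and was not tested as a binding site.
Sdha, chr13:74350241-74350360, minus strand, with 3 NRF1 motifs: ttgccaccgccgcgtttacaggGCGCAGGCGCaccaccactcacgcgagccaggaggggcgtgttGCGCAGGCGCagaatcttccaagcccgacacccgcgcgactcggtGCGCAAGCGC
Sdhd, chr9:50603850-50603969, minus strand, with an NRF1 and then an ETS motif: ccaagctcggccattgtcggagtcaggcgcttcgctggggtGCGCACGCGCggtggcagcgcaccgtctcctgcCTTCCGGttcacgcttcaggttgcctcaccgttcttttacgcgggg
Uqcr11, chr10:80406822-80406941, minus strand, with an ETS motif: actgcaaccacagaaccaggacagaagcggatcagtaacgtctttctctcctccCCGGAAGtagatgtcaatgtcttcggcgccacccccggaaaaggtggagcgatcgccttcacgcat
Atp5k, chr5:108434400-108434519, minus strand, with an NRF1 motif: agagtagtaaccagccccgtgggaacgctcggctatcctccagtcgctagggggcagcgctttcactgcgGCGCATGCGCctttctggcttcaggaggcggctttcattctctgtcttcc

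Of the 11 genes with an NRF1 motif, all but Atp5k were below 0 at 12 h against 0 h by their brightest probe sets. So were 65 of the 79 measured chain genes, and whether the motif goes with a direction was not tested. Sdha and Sdhd, which hold NRF1 motifs, were 1.34-fold and 1.37-fold lower at 12 h. Atp5k was 1.08-fold higher by its brightest probe set, but its other 2 probe sets gave log2 differences of -0.39 and -0.34. The ETS core was found in Uqcr11 (1.73-fold lower) and in Uqcrh (1.34-fold higher). By complex, NRF1 motifs were in 4 of 36 complex I genes, 2 of 3 of complex II, 0 of 5 of complex III, 1 of 11 of complex IV and 4 of 15 of complex V.

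Complex II is the smallest of the complexes. By their brightest probe sets, its 4 genes lay close together at 12 h, between -0.45 and -0.33. Sdha, the flavoprotein that oxidises succinate, had signals of 814, 830 and 609 at 0, 2 and 12 h, with a log2 difference of 0.03 at 2 h and -0.42 at 12 h. Sdhb, the iron-sulphur subunit, had 992, 925 and 790, which is -0.10 and -0.33. The 12 h signal was the lowest for both. Sdhc, a membrane anchor that carries the heme, had 800, 642 and 598 (-0.32 and -0.42). Sdhd, the other anchor, had 1123, 1013 and 822 (-0.15 and -0.45). By the brightest probe sets, all 4 genes were thus past the limit of 0.32 at 12 h, none reached 1.5-fold, and none had its lowest signal at 2 h. A second probe set gave a larger difference at 12 h for Sdha (log2 difference -0.85) and Sdhd (-0.91, with a signal of 173.3 at 0 h) and a smaller one for Sdhc (-0.18). By these second probe sets, Sdha was 1.80-fold and Sdhd 1.88-fold lower at 12 h. For Sdhd the second probe set had its lowest signal at 2 h, with a log2 difference of -1.39, so the 2 h value of Sdhd is uncertain.

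Complex I has the most genes. Its members are grouped here into the arm that oxidises NADH, the arm that reduces coenzyme Q, the accessory subunits of the membrane arm and the assembly factors, which are no part of the finished complex. At 12 h, 33 of 38 measured genes (86.8%) lay below the median of all genes and 19 were lower by more than 0.32, with none higher by as much. The 5 genes of the quinone-reducing arm had the lowest median, -0.51, and 4 of them were lower by more than 0.32. The 9 genes of the NADH arm had a median of -0.27, the 19 membrane-arm genes -0.28 and the 4 measured assembly factors -0.26. With so few genes in these groups, the order among them is a description only.

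In the quinone-reducing arm, Ndufa5, an accessory subunit, had signals of 362, 360 and 217 and was 1.67-fold lower at 12 h than at 0 h. Its second probe set gave 1.36-fold. Ndufs7, which carries the last iron-sulphur cluster before coenzyme Q, had 993, 873 and 669 and was 1.48-fold lower. By its second probe set (376.5, 319.6 and 320.8) it was 1.17-fold lower at 12 h, with its lowest signal at 2 h. Ndufa9, an accessory subunit at the junction of the arms, had 1019, 941 and 716 (1.42-fold lower), and the core subunit Ndufs3 had 470, 383 and 344 (1.37-fold lower). By the brightest probe sets of these 4 genes, the 12 h signal was the lowest and the 0 h signal the highest. Ndufs8, another iron-sulphur subunit, went the other way by its brightest probe set, with 1022, 1222 and 1074. Its 6 probe sets ranged from -0.31 to 0.21 on the log2 scale at 12 h, so that its direction is uncertain.

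In the NADH-oxidising arm, Ndufv1, the subunit that binds NADH and flavin, had signals of 547, 431 and 422 and was 1.27-fold lower at 2 h and 1.30-fold lower at 12 h. Ndufv2 was 1.35-fold lower at 12 h, Ndufs4 1.29-fold and Ndufs1, the largest core subunit, 1.23-fold. Ndufa2 was the exception, with 679.6, 780 and 834, its highest signal at 12 h. By the brightest probe sets, Ndufv2 had the lowest difference of this arm at 12 h and Ndufa2 was its only gene above 0. For Ndufa12, 2 other probe sets gave lower values at 12 h, -0.53 and -0.55, against -0.25 by its brightest. At 2 h these 2 probe sets read -0.58 and -0.65, against -0.13 by the brightest.

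Among the membrane-arm subunits, Ndufa3 was 1.53-fold lower at 12 h (803, 776 and 525), and its 2 probe sets gave -0.61 each. Ndufa10 was 1.47-fold lower, Ndufc1 1.47-fold, Ndufa13 1.40-fold and Ndufb5 1.39-fold. Ndufa13, also known as GRIM-19 and studied in interferon-induced cell death, had 871, 676 and 622. By the brightest probe sets, Ndufb6 was the lowest gene of complex I at 2 h (640.4, 474 and 637.3). Its 12 h signal was near that of 0 h by its brightest probe set and 1.19-fold lower by the other (530.3, 442.1 and 445.6). Ndufb7 was highest at 2 h, with 653, 947 and 629, which is 1.45-fold above 0 h and 1.51-fold above 12 h. Its other probe set (428.5, 504.4 and 318.7) was 1.18-fold higher at 2 h and 1.34-fold lower at 12 h than at 0 h. Ndufb2 had 469, 555 and 357, a 1.55-fold lower signal at 12 h than at 2 h, but its other probe set showed no peak at 2 h (298.4, 268.6 and 221.6). Ndufb1 was highest at 12 h (210.9, 199.8 and 260.6), 1.24-fold above 0 h.

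By their brightest probe sets, the assembly factors with an Nduf symbol did not share one course. Ndufaf1 had signals of 192.2, 175.8 and 182.4 and Ndufaf4 411, 316 and 372. Ndufaf3 had 244.3, 226.1 and 180, and Ndufaf5 149.8, 149 and 115.4. Ndufaf3 and Ndufaf5 were 1.36-fold and 1.30-fold lower at 12 h, and Ndufaf4 1.30-fold lower at 2 h. A second probe set of Ndufaf4 was lowest at 12 h instead (150.3, 141.3 and 121.8). Its log2 differences were -0.09 at 2 h and -0.30 at 12 h, so that the course of Ndufaf4 is uncertain. Ndufa4 carries a complex I symbol, although its protein is found in complex IV. It had 1103, 1023 and 793, 1.39-fold lower at 12 h, a lower value than that of any common complex IV isoform by its brightest probe set. Other probe sets of Cox5a, Cox6a1 and Cox6c were lower still. With it moved to complex IV and the assembly factors left out, the medians relative to all genes at 12 h were -0.25 for complex I and -0.06 for complex IV, and in the grouping by symbol they were -0.26 and -0.06.

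**Figure D2:**
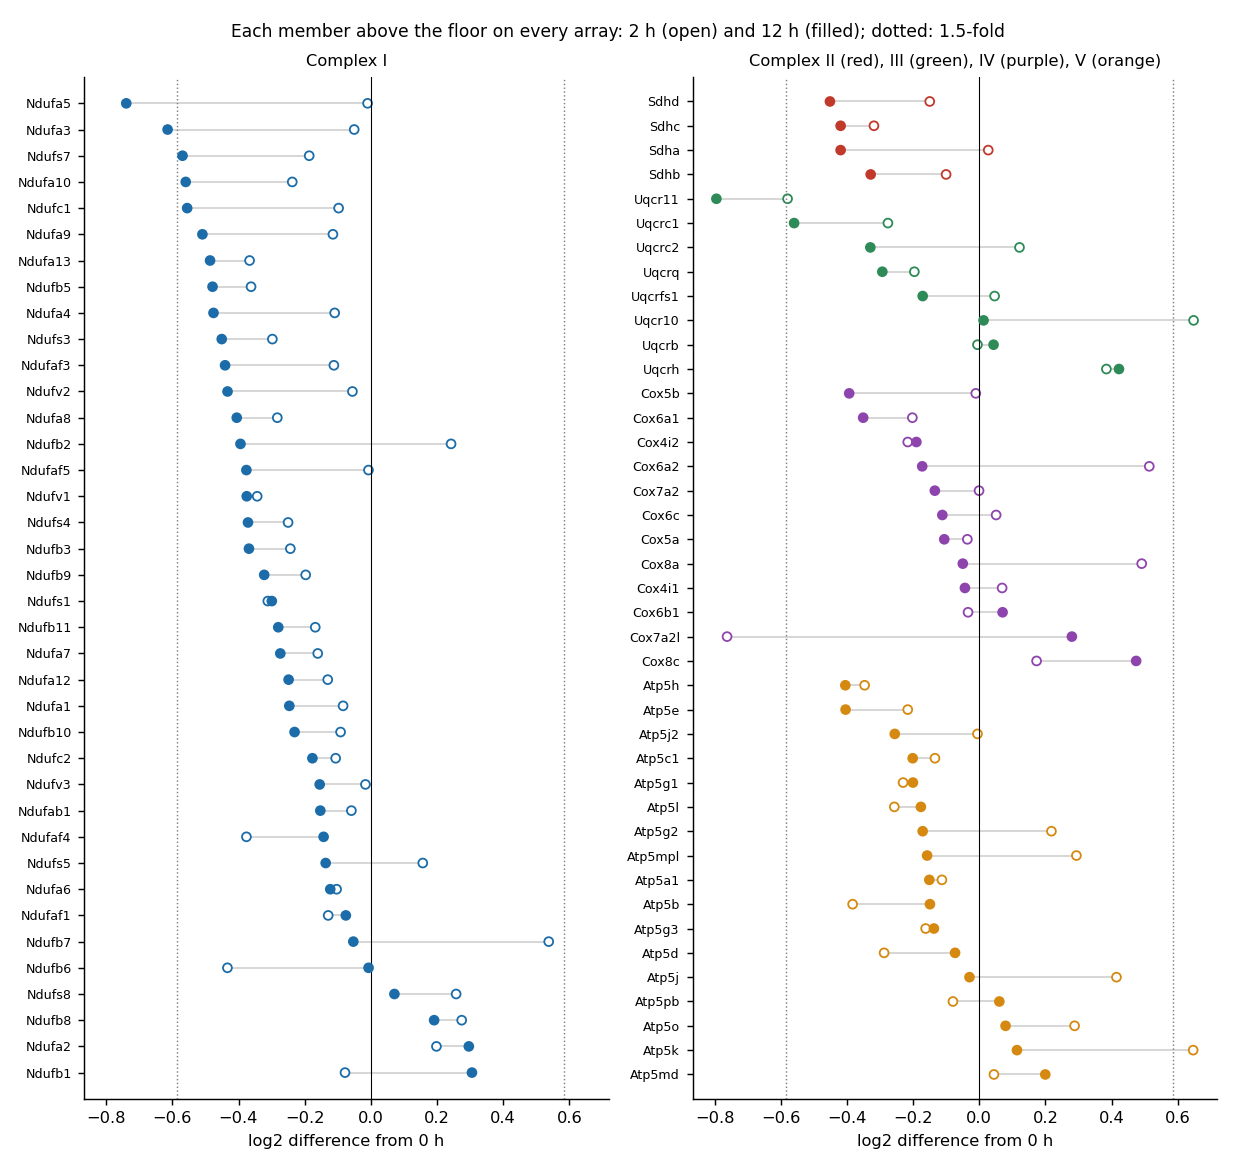
Log2 difference from 0 h (x axis) of each of the 79 genes above the floor on every array, at 2 h (open) and 12 h (filled), with complex I on the left and complexes II to V on the right; dotted lines mark 1.5-fold. Filled points lie left of 0 for 34 of 38 complex I genes and all 4 complex II genes, Uqcr11 (-0.79) and Ndufa5 (-0.74) have the lowest, and the open points of Uqcr10 and Atp5k are the only ones beyond the right dotted line.

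Complex III was split between its genes. Uqcr11, its smallest accessory subunit, had signals of 700, 468.5 and 404 and was 1.49-fold lower at 2 h and 1.73-fold lower at 12 h. By the brightest probe sets, this was the lowest difference at 12 h among the 79 genes. Uqcrc1 and Uqcrc2 encode the paired core proteins. Uqcrc1 had 1136, 938 and 771 (1.47-fold lower at 12 h) and Uqcrc2 767, 834 and 610.2 (1.26-fold lower). At 2 h the brightest Uqcrc2 probe set was higher than at 0 h (log2 difference 0.12) and the other lower (-0.43), so that the direction of Uqcrc2 at 2 h is uncertain. Uqcrq, which lies next to cytochrome b, was 1.23-fold lower at 12 h (804, 701 and 656). Uqcrfs1, the Rieske iron-sulphur protein that passes electrons on, was close to level with 513, 530.1 and 456.

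Other complex III genes were not lower at 12 h. Uqcrh, the hinge protein that contacts cytochrome c1, had 617, 805 and 826 and was 1.31-fold higher at 2 h and 1.34-fold higher at 12 h. Uqcrb had 2691, 2680 and 2772, within 1.03-fold between any 2 arrays. Uqcr10 had 496, 777 and 500.4, which made it 1.57-fold higher at 2 h and level with 0 h at 12 h. The second probe set of Uqcr10 above the floor was dim (76.6, 77.1 and 75.5) and showed no such peak, with a log2 difference of 0.01 at 2 h, so that the peak rests on 1 probe set. Cyc1, which encodes cytochrome c1 of the same complex but lies outside the symbol rule, had 1328, 1264 and 1137, a log2 difference of -0.22 at 12 h.

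By their brightest probe sets, the common isoforms of complex IV had mostly small differences. Cox4i1, the usual form of the subunit that binds ATP as a regulator, had signals of 2091, 2193 and 2029. Cox7a2 had 2521, 2520 and 2297, and Cox6c had 1673, 1733 and 1548. By these probe sets none of the 3 was beyond 1.12-fold between any 2 arrays, but the second probe set of Cox6c was 1.60-fold lower at 12 h (726.4, 641.6 and 452.8). Cox5a had 2418, 2358 and 2247 by its brightest probe set, but its other 2 gave log2 differences of -0.69 and -0.44 at 12 h. By their brightest probe sets, Cox6a1 and Cox5b, a subunit that binds zinc, were the common isoforms past the limit of 0.32 at 12 h. Cox6a1 was 1.27-fold lower (2228.5, 1937 and 1747) and Cox5b 1.31-fold lower (2203, 2187 and 1678). The second Cox6a1 probe set was 1.48-fold lower at 12 h (1550.6, 1399.2 and 1050.2). The 4 other Cox5b probe sets above the floor gave -0.32 to -0.17 at 12 h and 0.10 to 0.25 at 2 h. Cox8a had 986, 1385 and 952 and was 1.41-fold higher at 2 h, and its second probe set above the floor gave 1.23-fold. Cox6b1, which sits on the outer face of the complex, had 1944, 1899 and 2041, and its other probe set was 1.33-fold higher at 2 h.

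Of the 6 tissue isoforms of complex IV, 3 were under the floor on every array and 2 were near it, while Cox8c was well above it. Cox4i2, the lung and hypoxia isoform, had signals of 58, 50 and 50.9, and Cox6a2, the heart and muscle isoform, 46.1, 65.8 and 40.9. Cox6a2 was the highest complex IV gene at 2 h by log2 difference (0.51) and 1.61-fold lower at 12 h than at 2 h, from signals within reach of the floor. Cox8c, a testis isoform, was higher at each later time (177.5, 200.2 and 246.6), 1.39-fold above 0 h at 12 h. Cox7a2l encodes a protein that joins complexes III and IV into larger assemblies. Its brightest probe set had 843, 497 and 1024, which is 1.70-fold lower at 2 h and 2.06-fold higher at 12 h than at 2 h. By the brightest probe sets, this was the only 2-fold difference in the chain. The other 2 Cox7a2l probe sets gave 709, 722 and 774 and 447, 474.5 and 480.4, with log2 differences of 0.03 and 0.09 at 2 h. The dip at 2 h was therefore seen by 1 of 3 probe sets.

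Complex V is described by its catalytic head and its membrane part, whose genes overlapped in value at 2 h and whose difference was not tested. All 5 genes of the head and central stalk were below the median of all genes at 2 h, with a group median of -0.22. Atp5b, the catalytic beta subunit, had signals of 3025, 2320 and 2728 and was 1.30-fold lower at 2 h and 1.11-fold lower at 12 h. Atp5d, a small subunit of the central stalk, had 1770, 1450 and 1682, but its second probe set was lowest at 12 h (713.9, 647.3 and 624.4). Atp5a1, the alpha subunit, had 3172, 2933 and 2857, and another of its probe sets was higher at 2 h (log2 difference 0.17). Atp5c1, the rotating shaft, had 1821, 1659 and 1584. Atp5e was lowest at 12 h (671, 577.5 and 507), 1.32-fold below 0 h.

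The 12 genes of the membrane part and peripheral stalk had a median of 0.02 at 2 h and -0.15 at 12 h. Atp5k, the e subunit involved in pairing of the enzyme, had 833, 1303 and 901 and was 1.57-fold higher at 2 h, but its other 2 probe sets were 1.12-fold and 1.26-fold lower, so that its direction is uncertain. Atp5j, of the peripheral stalk, was 1.33-fold higher at 2 h (847, 1129 and 830.1), and Atp5h, of the same stalk, was 1.27-fold lower at 2 h and 1.32-fold lower at 12 h (1508, 1186 and 1139). A second probe set of Atp5h was higher at 2 h (0.13) and lower at 12 h (-0.25), so that its direction at 2 h is uncertain. Atp5md, a small accessory subunit, was highest at 12 h (248.9, 256.6 and 285.8).

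The c subunit, which forms the rotating ring, is made from Atp5g1, Atp5g2 and Atp5g3, whose proteins differ in their import sequences. Atp5g1 had signals of 1451, 1237 and 1262.5, Atp5g2 1054, 1225.5 and 936, and Atp5g3 3425, 3061 and 3115. Atp5g1 and Atp5g3 were lower than at 0 h at both times, and Atp5g2 was 1.16-fold higher at 2 h and 1.13-fold lower at 12 h. At 12 h the 3 genes lay between -0.20 and -0.14 on the log2 scale.

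At 2 h the limit of 0.32 was passed upward by 7 of 80 genes, against 12.7% of all genes and 15.3% of the brightest. These were Uqcr10, Atp5k, Ndufb7, Cox6a2, Cox8a, Atp5j and Uqcrh, and at 12 h Uqcrh alone of them was still past it. Downward it was passed by 9 of 80, against 26.2% of all genes and 11.1% of the brightest.

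Probe sets of one gene are the only repeat measurement on these arrays. In 42 chain genes more than 1 probe set was above the floor, and within such a gene the log2 differences had an SD of 0.27 at 2 h and 0.19 at 12 h. For all genes this SD was 0.32 and 0.34. At 12 h, all probe sets lay below 0 in 32 of the 42 genes, all above 0 in 3, and they disagreed in sign in 7. The share of all genes with every probe set below 0 was not counted. By the brightest probe set, 54.7% of all genes were below 0 at 12 h. At 2 h they disagreed in 19. All probe sets of a gene had one sign in 54.8% of the 42 genes at 2 h, against 54% of all genes with several. At 12 h this share was 83.3%, against 57.8%. The SDs and shares for all genes include dim genes, and no background of like signal was taken for them. Counting every member probe set with a signal above the floor, 114 of 141 lay below the median of all genes at 12 h and 68 of 142 at 2 h. The share of all probe sets below it was not counted. By gene, that share was 50% at 12 h and 49.9% at 2 h. The SD between probe sets does not include the difference between cultures, which was not measured.

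**Figure D3:**
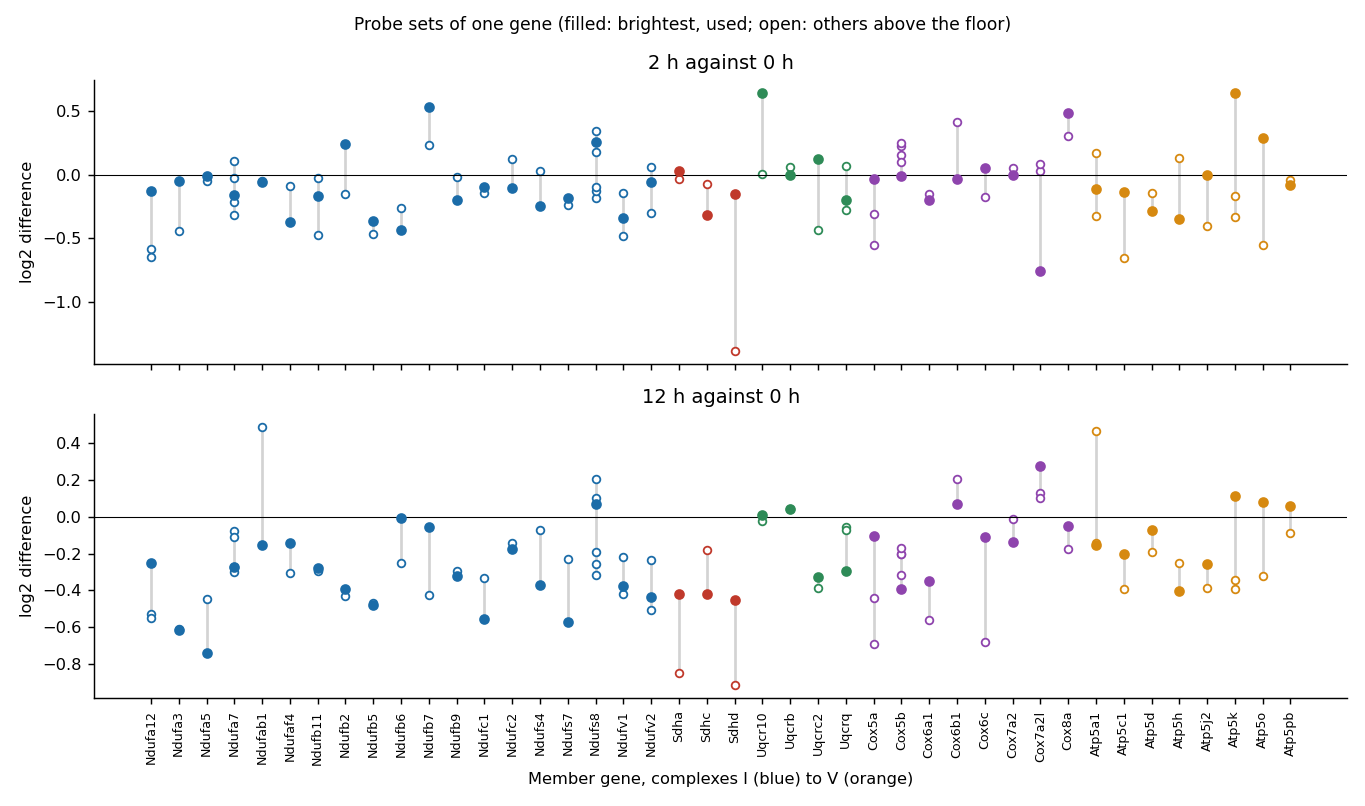
Log2 difference from 0 h (y axis) for each probe set above the floor of the 42 members with several (x axis), at 2 h (top) and 12 h (bottom); filled points are the brightest probe sets, used for the gene, and open points the others. At 12 h all points of 32 genes lie below 0, whereas at 2 h the points of 19 genes lie on both sides of it, among them those of Atp5k and Cox7a2l.

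The chain's partners and its regulators were set beside it from lists of known function. Of 16 citric acid cycle and pyruvate dehydrogenase genes, 13 lay below the median of all genes at 12 h, with a list median of -0.25. Suclg2, a subunit of succinyl-CoA ligase, was 1.91-fold lower (259.1, 152.8 and 135.8) and was the only one past 1.5-fold; at 2 h it was 1.70-fold lower. Fh1, fumarase, which acts on the product of complex II, had 945, 809 and 669.8 and was 1.41-fold lower, and citrate synthase, Cs, was 1.33-fold lower. Pdhb went the other way, 1.31-fold higher at 12 h.

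Assembly factors outside the symbol rule had a median of -0.11 over 29 genes at 12 h. Of them 3 were at least 1.5-fold higher and 3 lower, near the 8.27% and 10.3% of all genes. Ttc19, which acts on complex III, was 2.32-fold higher at 12 h (52.9, 77.2 and 122.6), Sco2, a copper chaperone of complex IV, 2.29-fold higher (85.9, 109.6 and 196.3) and the copper chaperone Cox17 1.51-fold higher. Acad9, needed for complex I, was 2.03-fold lower by its brighter probe set (139.9, 105.8 and 68.8), Bcs1l, needed for the Rieske protein, 1.61-fold lower and Uqcc2 1.52-fold lower. By the median of their 2 probe sets Acad9 was at -0.52 and Cox17 at 0.30. At 2 h Coa5 (1.62-fold) and Sdhaf2 (1.5-fold) were higher by their brightest probe sets, and 0.36 and 0.26 by the median over probe sets. Coa7 (1.73-fold) and Lrpprc, which stabilises mitochondrial mRNA (1.52-fold), were lower.

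Of 13 electron carriers and partner proteins, Etfdh, which passes electrons from fatty acid oxidation to coenzyme Q, was 1.59-fold lower at 2 h and 2.31-fold lower at 12 h (190.2, 120 and 82.5). Dhodh, a pyrimidine synthesis enzyme that also feeds coenzyme Q, was 1.74-fold lower at 2 h and 1.47-fold lower at 12 h (103.5, 59.4 and 70.3). Cycs, cytochrome c, had 2035, 1839 and 2198 and was 1.08-fold higher at 12 h. None of the 8 measured coenzyme Q synthesis genes was 1.5-fold apart from 0 h at either time, and their medians were -0.26 at 2 h and -0.15 at 12 h.

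Among regulators of mitochondrial gene expression, Ppargc1b, the coactivator PGC-1beta, had signals of 112.2, 26 and 125.9. It was at least 3.21-fold lower at 2 h and 1.12-fold higher at 12 h. The bound follows the floor: its log2 value was -1.68 as reported and -0.41 when the floor was raised to the 60th percentile. Ppargc1a was under the floor on every array. Nrf1, a factor with binding sites in many respiratory chain promoters, had 118.4, 125.4 and 96.1. Gabpa, a subunit of the ETS family factor GABP, was 1.71-fold lower at 12 h by its brighter probe set, and by the median of its 2 probe sets the log2 difference was -0.15. Tfam, which packages mitochondrial DNA, was 1.35-fold lower at 2 h (306.6, 227 and 254.3). Polg2, an accessory subunit of the mitochondrial DNA polymerase, was 1.56-fold lower at 2 h and 1.65-fold lower at 12 h. In all, 2 of 17 regulators were at least 1.5-fold lower at each time, near the 9.63% of all genes at 2 h and 10.3% at 12 h, and none was higher.

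**Figure D4:**
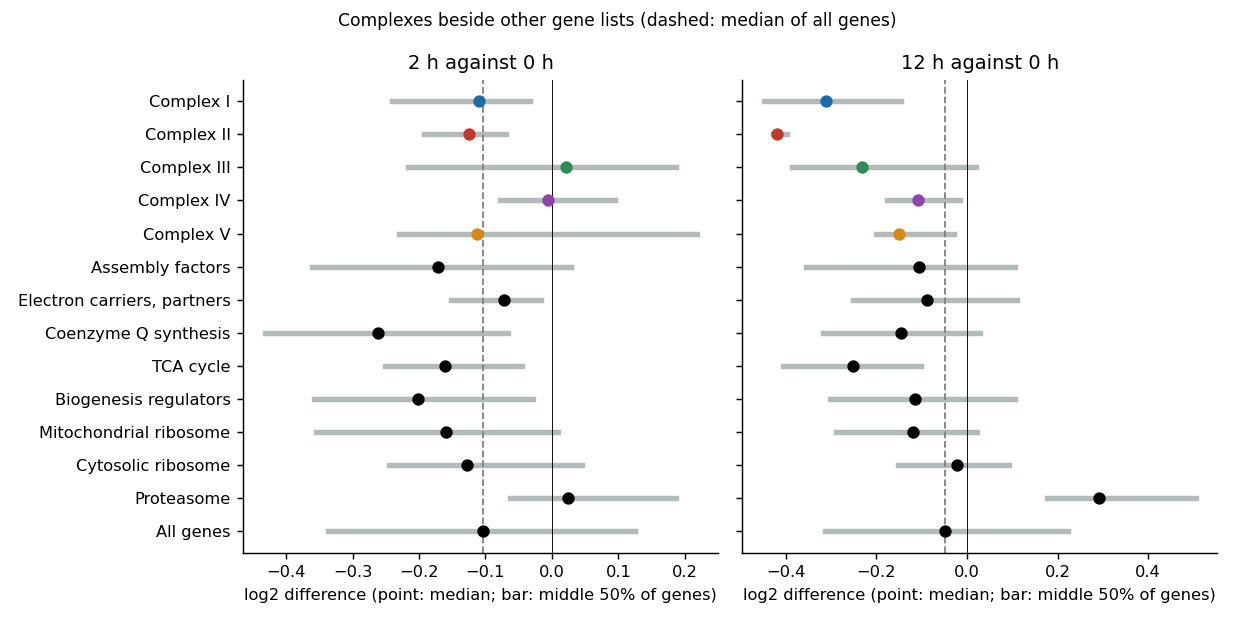
Median log2 difference (points) and the middle 50% of genes (bars) for each complex and for other gene lists (y axis), at 2 h and 12 h against 0 h; dashed lines are the median of all genes. At 12 h complexes II and I have the lowest medians (-0.42 and -0.31), citric acid cycle genes follow at -0.25, and proteasome genes are highest at 0.29.

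For other large assemblies the median at 12 h was -0.12 for 74 mitochondrial ribosomal protein genes, -0.02 for 39 measured cytosolic ribosomal protein genes and 0.29 for 38 proteasome genes. The limit of 0.32 was passed downward by 17 of the mitochondrial ribosomal genes (23%), 3 of the cytosolic ones and none of the proteasome genes, against 24.3% of all genes. These are counts on the same pair of arrays, and no test of the difference between lists was made.

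The 2 lowest places among the complexes at 12 h were the same under the processing settings tried, while the order of complexes III, IV and V varied. Relative to the median of all genes, complex II was lowest and complex I next in all 10 alternatives, and all 5 complexes stayed below 0 in all 10. Complex I ranged from -0.32 to -0.21 and complex II from -0.43 to -0.36. Complex III lay below complexes IV and V as reported (-0.18) but above both at -0.06 with the median over probe sets, and at -0.002 with suffixed probe sets left out, which leaves 57 measured chain genes. At 2 h complexes I, II and V were within 0.14 of 0 in every alternative and took both signs.

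**Figure D5:**
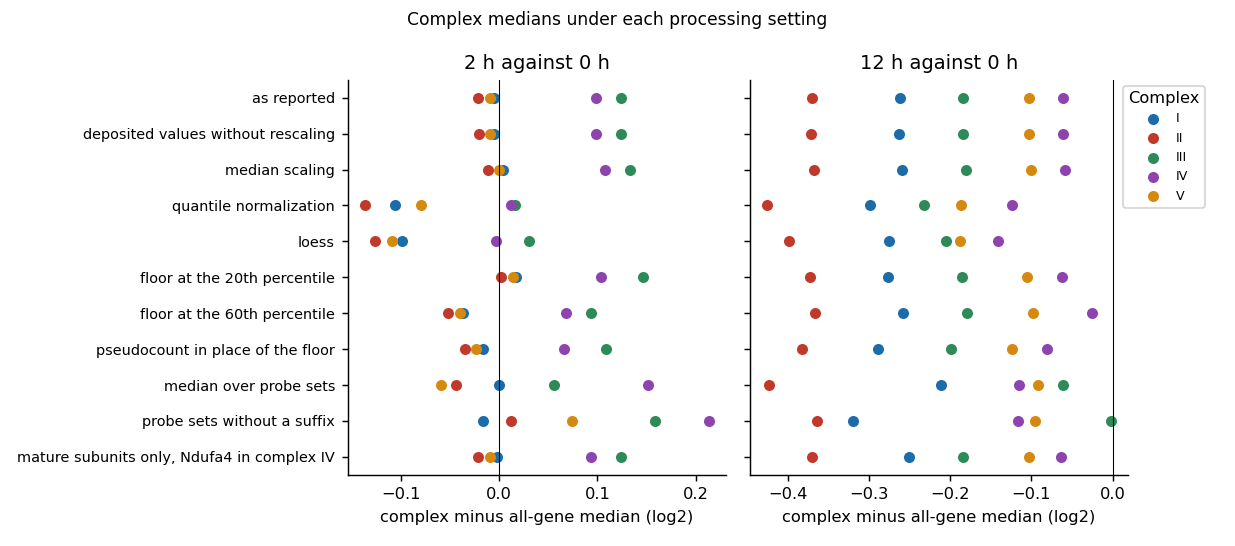
Median of each complex minus the median of all genes (x axis, log2) under each processing setting (y axis), at 2 h and 12 h against 0 h. At 12 h the points of complex II (-0.43 to -0.36) and complex I (-0.32 to -0.21) are the 2 leftmost in each row, and at 2 h points lie on both sides of 0.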

How the data were processed

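RAW264.7 cells were profiled on 3 one-colour Affymetrix-type arrays, 1 per time, from 5 µg of total RNA per the labels. Linear intensity values were deposited for 22690 probe sets, of which 64 are controls, and their trimmed means nearly coincide. How the authors scanned and scaled them is not given in the sources used here.

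Signals were scaled so that all arrays had one 2% trimmed mean. Of the probe sets, 20380 named 1 gene in the platform annotation and 20351 matched a RefSeq identifier (GRCm38.p6, names and promoters only). The brightest probe set stood for a gene. Signals under the floor (40th percentile, 34.96) were set to it before log2, and pairs both under it were left out. Relative medians subtract the median of all measured genes. Calls use 1.5-fold, with a log2 limit of 0.32 and 2-fold as alternatives. With 1 array per time no p-value exists, and the number of arrays limits the precision. Named genes were those past 1.5-fold, the extremes of each complex, all Sdh and Uqcr genes, isoform families and assembly factors; others are examples chosen after their values were seen. Members and lists were chosen with earlier results of these data known. Ribosomal and proteasome lists leave out kinase and other genes with similar symbols. The counting was tested on simulated data. Python 3.11.15, pandas 2.3.3, numpy 2.4.6 and statsmodels 0.14.6 (loess) were used.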

Additional observations from a re-analysis of the deposited data

How the results depend on the processing

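No paired analysis was possible because each time has 1 array, and leaving out an array was not run for the same reason. Complex medians are relative to the median of all genes unless stated.

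At 2 h against 0 h, the reported medians of complexes I to V were -0.01, -0.02, 0.12, 0.10 and -0.01. Quantile normalization gave -0.11 for complex I, -0.14 for complex II and 0.016 for complex III, loess -0.13 for complex II and -0.0035 for complex IV, and suffixed probe sets left out 0.21 for complex IV. Without subtraction they were -0.11, -0.12, 0.020, -0.0056 and -0.11, and -0.10 over all genes of the chain. At 12 h against 0 h, taking each gene's median probe set put complex III at -0.061, and leaving out suffixed probe sets put it at -0.0021. At 12 h against 2 h the median over probe sets gave -0.21 for complex II and -0.16 for complex III, and complex III was -0.072 without suffixed probe sets.

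Counts are small and moved easily. Higher at 2 h (2 reported): 5 with median scaling, 1 with loess, 0 with the median over probe sets, 1 without suffixed sets, 7 at a log2 limit of 0.32 and 0 at 2-fold. Lower at 2 h (1): 2 under quantile normalization, loess, the 20th percentile floor and the median over probe sets, 9 at a log2 limit of 0.32, 0 at 2-fold. Lower at 12 h (3): 6 under quantile normalization and loess, 5 with the 20th percentile floor, the pseudocount and the median over probe sets, 30 at a log2 limit of 0.32, 0 at 2-fold. Higher at 12 h (0): 2 at a log2 limit of 0.32. Lower at 12 h against 2 h (5): 8 with median scaling, 3 both with quantile normalization and when probe sets of a gene were pooled by median, 2 with loess and without suffixed sets, 22 at a log2 limit of 0.32, 0 at 2-fold. Higher (1): 2 with the 20th percentile floor and the pseudocount, 0 without suffixed sets, 3 at a log2 limit of 0.32. The cause of these moves was not tested, beyond the folds, which pass more or fewer genes by construction. Low signals limit precision: near the floor a small signal change gives a large fold.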
